A study of Mus musculus with 11 samples.

Results

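The genotype difference in the D0-to-D2 change was taken, for each gene, as the log2 change from D0 to D2 in LDHA-deficient (KO) natural killer (NK) cells minus the same change in wild-type (WT) cells. This difference is called the interaction below, and a negative value means that the change was more negative, or the rise smaller, in KO cells. It was computed from all 11 of the 11 libraries, for the 13711 of 24421 genes in the count table that passed a filter on low counts. The cells were Ly49H+ NK cells, sorted as TCRb- CD3e- NK1.1+ DX5+ from the spleens of C57BL/6 mixed bone marrow chimeras, with mouse cytomegalovirus (MCMV) given in vivo. WT cells carried CD45.1 and KO cells CD45.2, so the CD45 allele and the Ldha genotype cannot be told apart. The groups by title were WT D0 with 2 libraries, and WT D2, KO D0 and KO D2 with 3 libraries each. The label for days after infection reads day 2 in all 11, so D0 and D2 stand for the titles, and whether the D0 cells came from infected mice remains unknown here. Both genotypes are named in the genotype label for the libraries titled WT, and the title was followed. The labels call each sample an individual mouse, and do not say which libraries came from the same chimera or how Ldha was deleted.

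Ly49H is an activating receptor that binds an MCMV protein, and NK cells that carry it are activated and then divide in infected mice. Lactate dehydrogenase A turns pyruvate into lactate and restores NAD+, which keeps glycolysis running in activated lymphocytes. Activated NK cells also raise genes of protein folding, mitochondrial respiration and DNA synthesis, and interferons of the early infection switch on antiviral genes.

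Total counts ran from 19452460 to 27992092 per library, at which 3 counts make 0.107 to 0.154 CPM, the count scaled to a common library size. Levels below are CPM scaled by edgeR's TMM factors. Most of the variance, 79.4%, lay on the first principal component. The summed level of 14 NK markers ran from 20081 to 31427 CPM, and Gzma, a granule protease, led them. Of 7 lists of markers of other cells the T cell list summed to at most 164 CPM and the monocyte list to at most 575 CPM. The erythroid and platelet list ran from 136 to 954 CPM in KO D0, 222 to 859 in WT D0, 169 to 482 in WT D2 and 181 to 334 in KO D2. Hbb-bs, a hemoglobin chain, was its highest member over all libraries, at a mean of 58 CPM in WT D2 and 48.1 CPM in KO D2. No matched marker was at 0 in all libraries. The dendritic cell list ran from 1046 to 1126 CPM in KO D2 and from 810.1 to 896 CPM in WT D2. Itgax, its highest member over all libraries, had a mean of 301 CPM in KO D2 and 215 CPM in WT D2. Bst2 of this list is also in the interferon list below. None of the markers was called in the interaction by edgeR's quasi-likelihood test, up to 3 per list had an unadjusted p under 0.05, and DESeq2 called 1, in the NK list. In bulk libraries, fewer cells of a type and less RNA per cell cannot be told apart.

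Ldha itself, at chr7:46842274-46855627 of GRCm38 (Entrez 16828), was the gene with the smallest interaction p. It measured 563 and 656 CPM in WT D0 and 3101, 2753 and 2856 CPM in WT D2. In KO D0 it measured 91.1, 103 and 104 CPM, and in KO D2 115, 113 and 101 CPM. The KO libraries lay below every WT library on both days, and the KO days overlapped each other. Its log2 change was 2.25 in WT and 0.14 in KO, with a 95% interval of -0.09 to 0.38 in KO. The interaction was -2.11 (SE 0.17; edgeR adjusted p = 2.2e-04). This checks the genotype labels, since Ldha is the targeted gene.

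Across genes, most D0-to-D2 changes were shared by the genotypes. The WT change was called for 7336 genes (53.5% of those tested), of which 3776 rose (27.5%) and 3560 fell (26%), at an adjusted p under 0.05. The KO change was called for 8422 genes (61.4%), of which 3697 rose (27%) and 4725 fell (34.5%). Of the genes that rose in WT, 3123 (82.7%) also rose in KO, 546 were not called in KO and 107 fell in KO. Of the genes that fell in WT, 3089 (86.8%) also fell in KO, 469 were not called and 2 rose. The median ratio of the KO to the WT change was 0.92 for genes that rose in WT and 0.93 for those that fell. Pearson's r between the WT and KO changes was 0.855 across the 13711 genes, which are not independent replicates.

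The interaction itself was called for 801 genes (5.84%), and 2421 genes (17.7%) had an unadjusted p under 0.05. In this fit, which has no replicate block, the calls ran almost all one way. The change was more negative in KO for 784 genes (5.72%) and more positive for 17 (0.124%). This split was less one-sided with a replicate block within day, as the closing section gives. The median interaction over all genes tested was -0.04. Among the called genes the median difference between KO and WT was 0.02 at D0 and -1.40 at D2, on the log2 scale.

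The called genes were sorted by which of the 2 changes was called. A blunted gene changed the same way in both genotypes but less in KO (84 genes, 0.613%). A lost gene changed in WT and was not called in KO (124 genes, 0.904%), which does not show that KO was flat. An enhanced gene changed the same way and more in KO (144 genes, 1.05%), or changed in KO and was not called in WT (346 genes, 2.52%, called gained below; 490 or 3.57% together). A reversed gene changed in opposite directions (103 genes, 0.751%). Rises made up 75 of the blunted, 122 of the lost and 101 of the reversed genes by their WT change. Falls made up 143 of the enhanced and 343 of the gained genes by their KO change. So of the 3776 genes that rose in WT, 299 (7.92%) were called in the interaction, and 1 of them was enhanced.

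**Figure D1:**
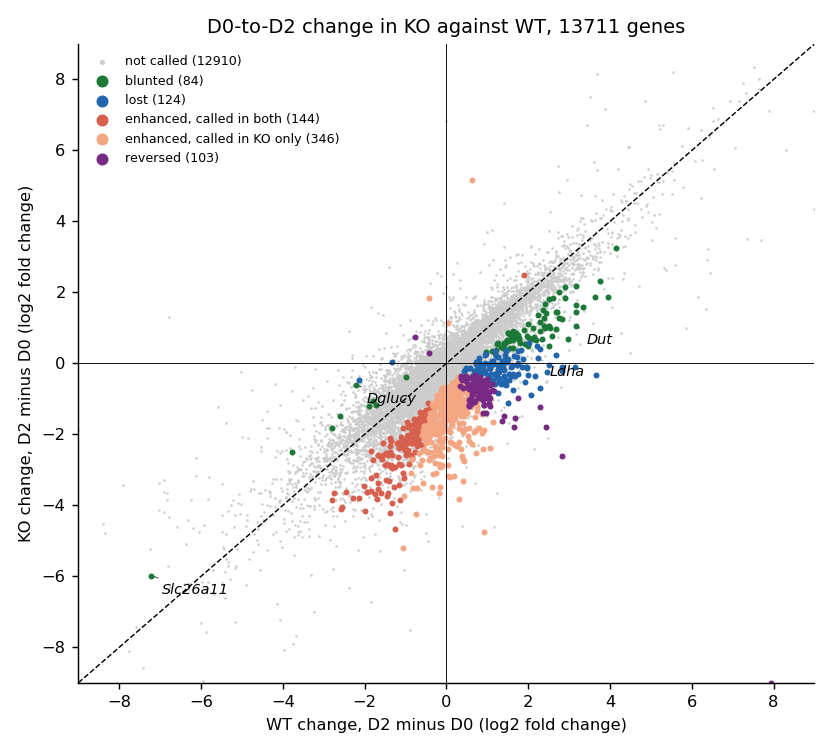
Log2 change from D0 to D2 in KO (vertical axis) against WT (horizontal axis) for 13711 genes; each point is a gene, colours give the class, the dashed line marks equal change, and values beyond 9 either way are drawn at the edge. Of the 801 called genes, 784 lie below the line.

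The called genes shared a feature of their sequence that the contrast did not use. For each gene, peak GC was taken as the highest share of G and C in any 100-base window of its GENCODE M21 protein-coding transcripts. Of 791 called genes with a value, 702 (88.7%) had a peak GC over 75%, against 5411 (42.2%) of 12817 genes tested. The best windows within the coding sequence show the contrast between Dut and Sdf2l1, from the blunted rises, and Ldha and Txnip, whose coding sequence is less GC-rich. The windows are from GRCm38, each at 100 bases and read on the strand of the gene, with G and C in capitals.
Dut, chr2:125247295-125247394, plus strand, 82% GC, exon 1: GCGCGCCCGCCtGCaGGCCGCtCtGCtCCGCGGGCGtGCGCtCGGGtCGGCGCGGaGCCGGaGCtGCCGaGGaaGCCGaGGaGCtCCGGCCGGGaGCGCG
Sdf2l1, chr16:17132209-17132308, minus strand, 78% GC, exon 1: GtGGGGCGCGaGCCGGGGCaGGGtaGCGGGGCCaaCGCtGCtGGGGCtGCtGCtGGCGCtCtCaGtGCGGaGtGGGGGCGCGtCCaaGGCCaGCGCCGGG
Ldha, chr7:46850965-46851882, plus strand, 64% GC, joined across exons 5 and 6: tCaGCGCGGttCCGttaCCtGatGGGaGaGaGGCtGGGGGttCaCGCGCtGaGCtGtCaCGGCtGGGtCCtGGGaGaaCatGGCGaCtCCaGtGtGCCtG
Txnip, chr3:96558292-96558391, plus strand, 62% GC, exon 1: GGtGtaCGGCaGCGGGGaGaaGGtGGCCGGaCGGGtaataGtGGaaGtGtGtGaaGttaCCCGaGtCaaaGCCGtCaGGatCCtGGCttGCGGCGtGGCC

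Both the size and the share of the interaction followed peak GC. Of genes with a peak GC over 75 and up to 80%, 16.7% were called, with a median interaction of -0.40. From 80 to 85%, 12.6% were called at a median of -0.56. Outside that range the shares were lower, at 0.14% up to 60% GC and 3.45% over 85%. Genes up to 60% GC had a median interaction of 0.28. In the 4620 genes with a peak GC of at most 70%, 15 (0.325%) were called, and r between the WT and KO changes was 0.927. In the 4483 genes from 75 to 85%, 670 (14.9%) were called and r was 0.81.

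**Figure D2:**
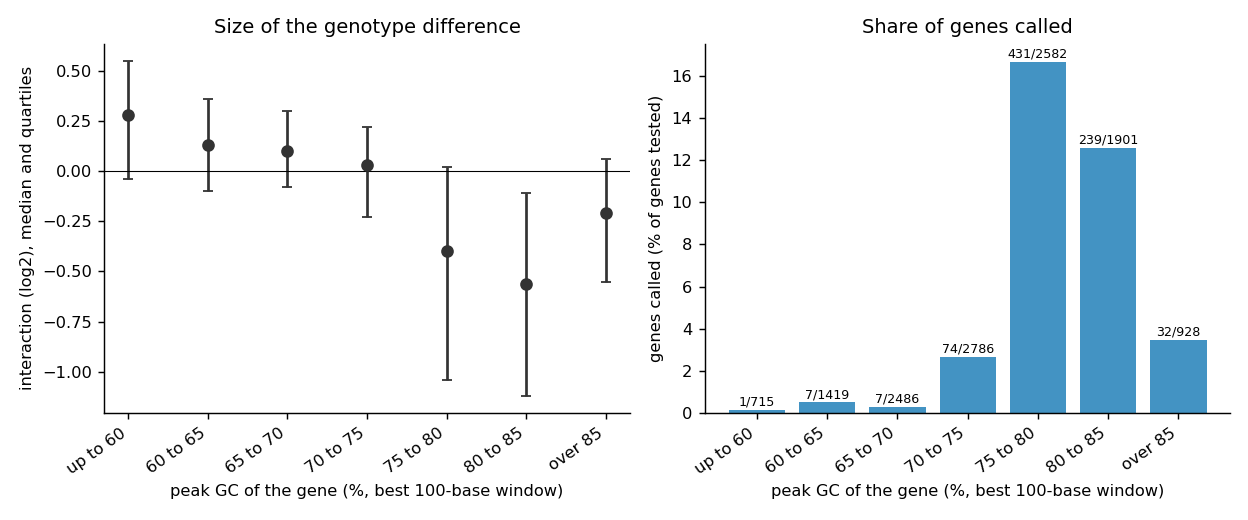
Left, the interaction (log2; point, median; bars, quartiles) and right, the share of genes called (%; number called over number tested above each bar), both by peak GC of the gene. The median falls from 0.28 up to 60% GC to -0.56 at 80 to 85%, and 16.7% are called at 75 to 80%.

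The level of GC-rich relative to GC-poor genes set the KO D2 libraries apart, and it also varied with replicate number. For each library it was the median deviation of genes from 75 to 85% peak GC minus that of genes up to 70%, on the log2(CPM + 0.5) scale. KO D2 libraries were at -0.54, -0.46 and -0.44. WT D2 libraries were at -0.13, 0.24 and 0.16, WT D0 at 0.17 and 0.29, and KO D0 at 0.07, 0.32 and 0.32. The KO D2 libraries lay below every other library, and WT D2 replicate 1 lay between them and the rest. The other 3 groups overlapped. Replicate 1 was the lowest library in KO D0, KO D2 and WT D2, and WT D0 has no replicate 1, so replicate number is unbalanced across the groups. With a trend on peak GC within each library taken as an offset, edgeR called 131 genes, 25 more positive and 106 more negative in KO, and 115 of them were among the 801. The genes with a peak GC of at most 70%, scaled and fitted alone (4672 genes, a setting chosen after the data were seen), gave 1 call (0.0214%), Ldha, and 236 genes at an unadjusted p under 0.05. What makes GC-rich transcripts lower in the KO D2 libraries was not tested, and the classes below carry these values.

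The calls also depended on single libraries. Leaving out each library in turn gave from 4 calls, without WT D0 replicate 2, to 1436 calls, without WT D2 replicate 1. Without WT D0 replicate 3 there were 190 calls, and without KO D0 replicates 1, 2 and 3 there were 1418, 149 and 506. Without KO D2 replicates 1, 2 and 3 there were 121, 119 and 270, and without WT D2 replicates 2 and 3 there were 285 and 117. All 801 genes kept the direction of their estimate in each of the 11 fits. These fits share most libraries with the fit that picked the genes, so this does not show that the directions are stable. Ldha, Dut, Pdia3 and Trip13 were called in all 11, and a further 92 genes in 10.

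**Figure D3:**
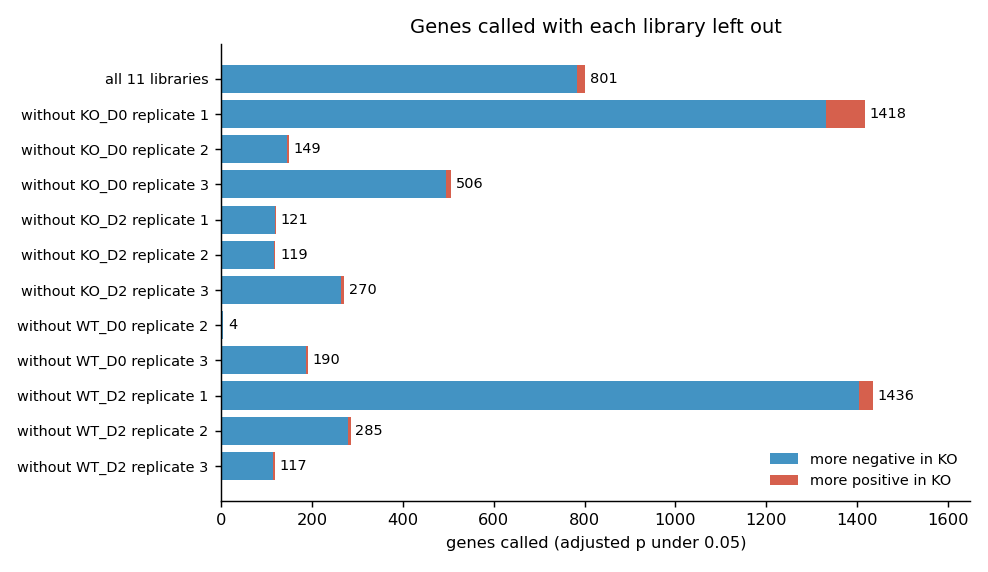
Genes called in the interaction (horizontal axis, number of genes at an adjusted p under 0.05) with all 11 libraries and with each library left out; blue, more negative in KO; red, more positive. The number falls from 801 to 4 without WT D0 replicate 2 and rises to 1436 without WT D2 replicate 1.

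The 75 blunted rises had a median log2 change of 2.11 in WT and 0.85 in KO, so that KO kept a median share of 0.44 of the WT rise. Peak GC was over 75% in 65 of them. Dut, the enzyme that removes dUTP and supplies dUMP for thymidine synthesis, stood at 18.9 and 17.8 CPM in WT D0 and at 148, 159.9 and 182 CPM in WT D2. In KO it stood at 18.6, 20.9 and 24 CPM at D0 and at 41.1, 39.2 and 51.5 CPM at D2. The genotypes overlapped at D0, and both rose, but no KO D2 library reached a WT D2 library. Its mean level at D2 was 44 ± 6.59 CPM in KO and 163 ± 17.3 CPM in WT (SD, n = 3 each). Dut changed by 3.16 in WT and 1.06 in KO, an interaction of -2.10 (SE 0.22; edgeR adjusted p = 0.0027), and remained called with the GC offset at -1.43 (adjusted p = 0.027).

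Pdia3, a disulfide isomerase that helps glycoproteins fold in the endoplasmic reticulum, stood at 479 and 473 CPM in WT D0 and at 1963, 2093 and 2104 CPM in WT D2. In KO it went from 422, 481 and 394 CPM to 720.5, 675 and 695 CPM. The D0 groups overlapped and the D2 groups lay far apart, with KO D2 at 33.9% of WT D2. Its interaction was -1.42 (SE 0.15; edgeR adjusted p = 0.0028), and -0.83 with the GC offset (adjusted p = 0.044). Trip13, an ATPase that acts on the mitotic checkpoint, went from 5.4 and 4.68 CPM to 54.7, 48 and 51.1 CPM in WT. In KO it went from 5.69, 6.73 and 6.74 CPM to 19.5, 19.9 and 17.9 CPM. The genotypes did not overlap at D0 either, with KO slightly higher, though that difference was not called. The interaction of Trip13 was -1.76 (SE 0.21; edgeR adjusted p = 0.0061).

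Sdf2l1, a component of the endoplasmic reticulum chaperone network, went from 62.6 and 63.9 CPM to 315, 285 and 354 CPM in WT. In KO it went from 59.6, 68.7 and 78.5 CPM to 120.0, 97.1 and 114 CPM. WT rose 5.03-fold and KO 1.6-fold, and the D2 groups did not overlap. The interaction was -1.65 (edgeR adjusted p = 0.0061), and the call was lost in 1 of the 11 fits that left out a library. Ube2s, a ubiquitin-conjugating enzyme of the anaphase-promoting complex, rose by 1.99 in WT and 0.48 in KO. Nek2, a centrosome kinase, rose by 2.52 in WT and 0.50 in KO. Both were called in 10 of those 11 fits, and Nek2, but not Ube2s, was called with the GC offset.

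The 122 lost rises had median log2 changes of 1.28 in WT and -0.16 in KO, and 106 of the 121 with a value had a peak GC over 75%. Phb2, a prohibitin of the inner mitochondrial membrane, stood at 116 and 140.3 CPM in WT D0 and at 298, 349 and 377 CPM in WT D2. The KO libraries held 128, 134 and 167 CPM at D0 and 109, 132 and 139 CPM at D2. The KO days overlapped each other and WT D0, and WT D2 stood alone. Its change was 1.41 in WT and -0.18 in KO, and the interaction was -1.59 (SE 0.22; edgeR adjusted p = 0.0077).

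Cox5a, a subunit of cytochrome c oxidase, stood at 84 and 89.7 CPM in WT D0 and at 175, 284 and 286 CPM in WT D2. Its KO levels were 75.4, 84.8 and 83.7 CPM at D0 and 59.9, 65.7 and 71.8 CPM at D2. WT D2 replicate 1 was well below its group, yet above every KO library, and KO D2 lay under KO D0. The KO interval ran from -0.67 to 0.06, and the interaction was -1.82 (SE 0.25; edgeR adjusted p = 0.0077). Rps2, a protein of the small ribosomal subunit, changed by 1.50 in WT and 0.11 in KO, and the counting may have shared its reads with pseudogene copies. Sf1, which binds the branch point in splicing, changed by 1.15 and -0.03. Sf1 was not called with the GC offset, at an adjusted p of 0.16, whereas Cox5a, Phb2 and Rps2 were.

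**Figure D4:**
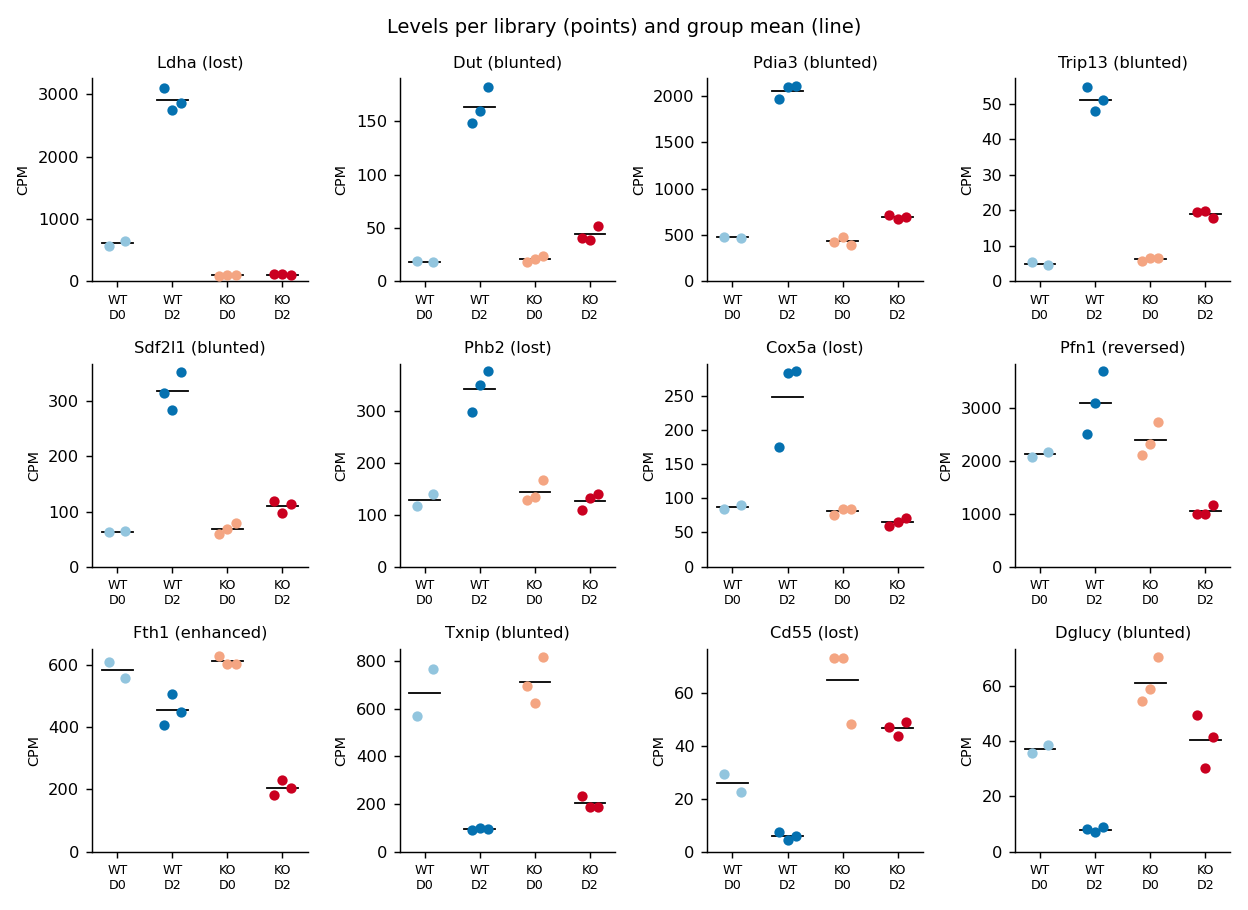
TMM-scaled CPM (vertical axes, from 0) of 12 genes in each library (points) by group, with the group mean as a line; the class is given beside each name. Ldha stays between 91.1 and 115 CPM in KO and reaches 2753 to 3101 CPM in WT D2.

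Reversed genes rose in WT and fell in KO in 101 of 103 cases. The 101 had median log2 changes of 0.81 in WT and -0.73 in KO, and 89 of the 98 with a value had a peak GC over 75%. Pfn1, profilin, which supplies actin monomers to growing filaments, stood at 2069 and 2173 CPM in WT D0 and at 2509, 3094 and 3701 CPM in WT D2. KO cells had 2118, 2309 and 2729 CPM at D0 and 985, 1001 and 1165 CPM at D2. Its D0 levels overlapped between genotypes, and from there WT moved up and KO down without overlap. The interaction was -1.73 (SE 0.22; edgeR adjusted p = 0.0073), and -1.30 with the GC offset (adjusted p = 0.027).

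Other reversed genes included Exosc3, Dbr1, Rtca, Lsm4 and Tusc3. Exosc3, a subunit of the RNA exosome, changed by 0.93 in WT and -0.82 in KO. Dbr1, which opens intron lariats, changed by 0.83 and -0.75, Rtca, an RNA cyclase, by 0.87 and -0.58, and Lsm4, of the protein ring on U6 small nuclear RNA, by 0.97 and -0.46. Tusc3, of the oligosaccharyltransferase complex, changed by 0.59 and -1.14. All 5 were called in 10 of the 11 fits that left out a library, and with the GC offset. Only Cnbd2 and Zfp445 were reversed the other way, with WT falling and KO rising. Cnbd2 changed by -0.76 in WT and 0.73 in KO, and Zfp445, a zinc finger protein, by -0.42 and 0.29. Cnbd2 (chr2:156311946-156375638) overlaps Scand1 (chr2:156311846-156312704), a gained fall given below, and whether their reads were split between them was not tested.

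Enhanced falls were smaller falls in WT that were deeper in KO. The 143 genes had median log2 changes of -0.96 in WT and -2.24 in KO, and 130 had a peak GC over 75%. Fth1, the ferritin heavy chain, which stores iron, stood at 610.1 and 557 CPM in WT D0 and at 407, 507 and 449 CPM in WT D2. In KO it stood at 630.1, 604 and 602 CPM at D0 and at 183, 229 and 206 CPM at D2. Both genotypes fell from the same range, and KO D2 lay below WT D2 throughout. The interaction was -1.21 (SE 0.18; edgeR adjusted p = 0.0077), and -0.78 with the GC offset (adjusted p = 0.065). Cdkn2aip fell by 0.60 in WT and fell by 2.31 in KO, and Tmem9b fell by 0.50 in WT and fell by 2.00 in KO. Tpm1, a tropomyosin of actin filaments, fell by 1.35 in WT and fell by 2.85 in KO. Spr, the last enzyme of tetrahydrobiopterin synthesis, fell by 1.04 in WT and fell by 3.23 in KO.

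Gained falls formed the largest class, with 343 genes. Their median log2 changes were 0.05 in WT and -1.39 in KO, and 311 of the 338 with a value had a peak GC over 75%. Dync1li1, a dynein light intermediate chain, stood at 92 and 99.9 CPM in WT D0 and at 91.3, 112 and 110.1 CPM in WT D2. The KO libraries held 86.9, 96.2 and 109.6 CPM at D0 and 41.1, 46.1 and 41.4 CPM at D2. The other groups overlapped one another, and KO D2 lay below them all. The interaction was -1.31 (SE 0.19; edgeR adjusted p = 0.0077), and -1.09 with the GC offset (adjusted p = 0.029). Crlf3 changed by 0.22 in WT and -0.92 in KO, Slc7a6os by 0.05 and -1.42, and Mmd by -0.11 and -1.76. Scand1 was a low gene, at 2.94 to 8.07 CPM in WT and 0.332 to 0.633 CPM in KO D2. Its interaction was -3.50, with an SE of 0.53.

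The 17 genes whose change was more positive in KO were mostly falls that were smaller there. Of these, 9 were blunted falls, with median log2 changes of -2.21 in WT and -1.20 in KO, and none of the 8 with a value had a peak GC over 75%. Txnip, which restrains glucose uptake and falls in activated lymphocytes, stood at 569 and 766 CPM in WT D0 and at 92.2, 98.9 and 97.1 CPM in WT D2. Its KO levels were 695, 623 and 816 CPM at D0 and 232, 189 and 188 CPM at D2. Every KO D2 library was above every WT D2 library, and D0 overlapped. Txnip fell by 2.80 in WT and fell by 1.81 in KO, an interaction of 0.99 (SE 0.21; edgeR adjusted p = 0.022). It was called in 4 of the 11 fits that left out a library, and not with the GC offset, at 0.83 (adjusted p = 0.081).

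Dglucy, D-glutamate cyclase of mitochondria, stood at 35.5 and 38.6 CPM in WT D0 and at 8.22, 7.06 and 8.78 CPM in WT D2. KO cells had 54.3, 58.8 and 70.2 CPM at D0 and 49.4, 30.3 and 41.6 CPM at D2. KO was above WT on both days, and the gap widened at D2. The interaction was 1.61 (SE 0.27; edgeR adjusted p = 0.0093), it was called in 10 of the 11 fits, and the GC offset left it at 1.48 (adjusted p = 0.029). Anxa1, annexin A1, fell by 1.90 in WT and fell by 1.20 in KO, and its D2 levels overlapped, at 83.1 to 94.4 CPM in WT and 94.1 to 102 CPM in KO. Its interaction of 0.70 (0.27 and not called with the GC offset, edgeR adjusted p = 0.63) came with a lower D0 level in KO, at 209 to 239.9 CPM against 321 and 343 CPM. Cd9, a tetraspanin, fell by 1.73 in WT and fell by 1.18 in KO. Slc26a11 fell by 7.23 in WT and fell by 5.98 in KO, to between 0.299 and 1.31 CPM in the D2 libraries. Rarg, a retinoic acid receptor, fell by 3.78 in WT and fell by 2.50 in KO.

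The 2 lost falls were Cd55 and Naip6. Cd55, decay-accelerating factor, which limits complement at the cell surface, stood at 29.2 and 22.7 CPM in WT D0 and at 7.32, 4.34 and 6.05 CPM in WT D2. In KO it stood at 73.2, 73.1 and 48.3 CPM at D0 and at 46.9, 43.7 and 49.1 CPM at D2. KO was higher on both days without overlap, and the KO days overlapped. The KO change was -0.48, with a 95% interval of -0.91 to -0.05 and an adjusted p of 0.053, so that its place among the lost falls is narrow. The interaction was 1.66 (SE 0.30; edgeR adjusted p = 0.013), and 1.57 with the GC offset (adjusted p = 0.042). Cd55 lies at chr1:130429798-130465009, on the chromosome that also carries Ptprc, the CD45 gene by which the genotypes were told apart. Naip6, of a family of sensors with near-identical copies among which reads may be split, fell by 1.32 in WT and changed by 0.03 in KO.

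A further 3 were rises gained in KO, Psrc1, Serpini1 and the provisional gene Gm3558, which was under 1 CPM on average. Psrc1, a spindle protein, stood at 1.03 and 1.49 CPM in WT D0 and at 0.797, 0.86 and 1.16 CPM in WT D2. The KO libraries held 1.91, 2.51 and 3.65 CPM at D0 and 10.3, 7.68 and 10.6 CPM at D2. It was low in all WT libraries, and its change was called in KO and not in WT, with an interaction of 2.25 (SE 0.44; edgeR adjusted p = 0.018). Serpini1, a serine protease inhibitor, changed by 0.03 in WT and rose by 1.13 in KO. Slfn8 was the 1 enhanced rise. This Schlafen gene, induced by interferon and with close copies beside it, rose by 1.90 in WT and 2.50 in KO, with an interaction of 0.60 (SE 0.16; edgeR adjusted p = 0.049).

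The share called in each gene list below stands against the 5.84% called of all genes. Its direction stands against the 784 of 801 calls that were negative. Counts of estimate signs stand against all 13711 genes tested, of which 7369 had a negative estimate. Members of a list are not independent of each other. Calls followed peak GC. Lists rich in genes over 75% stand nearer to the genes over 75%, of which 702 of 5411 were called. From 75 to 85%, 14.9% were called at a median interaction of -0.47. Of 25 tested genes of lactate and pyruvate handling, 6 were called (24%), all more negative in KO as nearly all calls were. The 6 include Ldha, the targeted gene, so the share partly reflects the deletion itself. The median interaction was -0.16, and 2 of the list were called with the GC offset. Slc16a1, the lactate transporter MCT1, was a blunted rise of 2.70 in WT and 1.46 in KO, and Bsg, the chaperone that brings it to the membrane, changed by 0.59 in WT and -0.41 in KO. Pdk3, a kinase that inhibits pyruvate dehydrogenase, stood at 36.1 and 33.1 CPM in WT D0 and at 81.6, 99.7 and 99.2 CPM in WT D2. Its KO levels were 26.3, 34.3 and 35 CPM at D0 and 31.9, 34.9 and 36.5 CPM at D2. Its rise was called in WT and not in KO, where the days overlapped, with an interaction of -1.32 (SE 0.21; edgeR adjusted p = 0.0093). Dlat, the acetyltransferase of pyruvate dehydrogenase, changed by 0.99 in WT and -0.46 in KO. Slc25a11, the mitochondrial 2-oxoglutarate carrier of the malate-aspartate shuttle, fell by 1.15 in KO and was not called in WT. Without WT D0 replicate 2, Ldha was the 1 call in this list.

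About as many glycolysis genes rose in KO as in WT. Of 19 tested, 10 rose in WT and 10 in KO, 2 were called in the interaction (10.5%), and the median interaction was -0.10. Pgam1, phosphoglycerate mutase, rose by 1.63 in WT and 0.91 in KO, an interaction of -0.71 (SE 0.16; edgeR adjusted p = 0.027). Pgp, phosphoglycolate phosphatase, was low and spread widely, at 3.54 to 16.9 CPM in WT D2 and 0.614 to 0.86 CPM in KO D2. Slc2a1, the glucose transporter GLUT1, changed by 0.95 in WT and 1.09 in KO, and Hk2, hexokinase 2, by 4.62 and 3.90, and neither was called. Neither Pgam1 nor Pgp was called with the GC offset or without WT D0 replicate 2.

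Of 66 oxidative phosphorylation genes 64 rose in WT and 58 in KO, and 6 were called in the interaction (9.09%, beside 5.84% of all genes), at a list median of -0.04 that equals that of all genes. Besides Cox5a these were Uqcrfs1, the Rieske protein of complex III (0.84 in WT, -0.96 in KO), Ndufab1 (2.02 and 0.71), Cyc1, Atp5b and Atp5d. With the GC offset, 1 of the 66 was called. Of 77 mitochondrial ribosome genes 8 were called (10.4%), among them Mrps35 (0.31 in WT, -1.38 in KO) and Mrps15 (0.81 and -0.97), and 6 of the 8 had a peak GC over 75%. Idh2, the mitochondrial NADP-linked isocitrate dehydrogenase, was the 1 call of 18 citric acid cycle genes (5.56%). Its level was 8.46 to 12.5 CPM in WT D2 and 3.07 to 4.25 CPM in KO D2, after 12.1 and 15.4 CPM in WT D0 and 15.5 to 25.5 CPM in KO D0.

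The endoplasmic reticulum list had 7 of 24 members called (29.2%), all more negative in KO, beside 5.84% of all genes. Its median interaction was -0.32, and 12 of the 24, including 6 of the 7, had a peak GC over 75%. Besides Pdia3 and Sdf2l1 the blunted rises were Manf (2.76 in WT, 2.02 in KO) and Creld2 (2.82 and 1.24), both secreted proteins of this stress response. Xbp1, its transcription factor, stood at 95.6 and 118 CPM in WT D0 and at 157, 327 and 291 CPM in WT D2. KO cells had 56.7, 113 and 104 CPM at D0 and 69, 72.3 and 65.1 CPM at D2, so the KO days overlapped. Its interaction was -1.68 (SE 0.41; edgeR adjusted p = 0.033). Dnajc3, a cochaperone, and Sel1l, of the degradation complex, fell in KO and were not called in WT. The central chaperones were not called, Hspa5 at 2.43 in WT and 2.38 in KO and Hsp90b1 at 2.26 and 2.38, and 3 of the list were called with the GC offset.

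Of 40 DNA replication genes 38 rose in WT and 37 in KO, and 5 were called in the interaction (12.5%, beside 5.84% of all genes). Peak GC was over 75% in 6 of the 40, including 4 of the 5 called, and 2 of the list were called with the GC offset. Mcm6, a subunit of the replicative helicase, stood at 231 and 306 CPM in WT D0 and at 791, 843 and 916 CPM in WT D2. In KO it stood at 206, 288 and 303 CPM at D0 and at 297, 272 and 347 CPM at D2. It was the 1 lost rise of that list, with an interaction of -1.46 (SE 0.24; edgeR adjusted p = 0.0097), beside the blunted Rfc5 (2.11 in WT, 1.01 in KO), Chaf1a (2.14 and 0.75) and Clspn (3.18 and 2.19). Clspn, an S-phase checkpoint adaptor with a peak GC of 65%, overlapped at D2 and was apart at D0, at 5.54 and 6.88 CPM in WT and 10.6 to 12 CPM in KO.

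Of 32 mitosis genes 31 rose in each genotype. A negative interaction estimate was found for 31 of them, beside 7369 of all 13711 genes, with a median of -0.46. The interaction was called for 4 (12.5%, beside 5.84% of all genes), 3 more negative in KO and 1, Psrc1, more positive. Ccna2, cyclin A2, rose by 2.98 in WT and 0.68 in KO, with 106, 176 and 153 CPM in WT D2 and 30.6, 28 and 33.7 CPM in KO D2. Cdc20, the activator of the anaphase-promoting complex, changed by 2.21 in WT and 0.50 in KO. Mki67, a proliferation marker, changed by 2.89 and 2.23 and Top2a, a topoisomerase, by 3.49 and 3.16, and neither was called. Of 22 G1 cyclin, kinase and E2F genes 14 rose and 2 fell in WT, and 12 rose and 5 fell in KO. In the interaction 3 were called (13.6%), at a median of -0.59. Of the 22, 19 had a peak GC over 75%, and 702 of all 5411 genes over 75% were called. Cdk6 rose by 1.61 in WT and 0.71 in KO, Cdc25a by 1.98 and 0.76, and E2f4 changed by 0.99 and -0.45.

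Histone genes had the lowest list median, at -0.99, and 10 of 36 were called (27.8%, beside 5.84% of all genes and 14.9% of genes from 75 to 85% peak GC). All 10 had a peak GC over 75%, and 7 of the list were called with the GC offset. H2ac24 stood at 107 and 136 CPM in WT D0 and at 259.6, 881 and 834 CPM in WT D2. The KO libraries held 86.3, 193 and 329 CPM at D0 and 46.9, 55.6 and 74.8 CPM at D2. The spread within groups was wide, yet WT D2 and KO D2 did not overlap, and the interaction was -4.21 (SE 0.73; edgeR adjusted p = 0.011). H2ac4 changed by 2.83 in WT and -0.10 in KO, and H2ac20 by 1.35 and -1.61. Reads of near-identical histone genes may have been split among them.

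Interferon genes had estimates on the other side, most of them not called. Of 42 type I interferon response genes 42 rose in WT and 41 in KO. A positive interaction estimate was found for 40 of them, with a median of 0.33, whereas 7369 of all 13711 genes had a negative one. Slfn8 was called in that direction, and Cmpk2, a mitochondrial nucleotide kinase with a peak GC of 79%, was called in the other, at 2.03 in WT and 0.58 in KO. Irf7, a factor that amplifies the interferon response, changed by 2.12 in WT and 2.77 in KO and was not called (SE 0.20; edgeR adjusted p = 0.074). Of 15 guanylate-binding proteins and immunity-related GTPases none was called by edgeR, 5 had an unadjusted p under 0.05, DESeq2 called 3, and the median was 0.42. Of the 42 interferon genes 1 had a peak GC over 75%, and of the 15 none had. The median interaction of all genes up to 60% GC was 0.28, and of those from 60 to 65% it was 0.13.

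Of 45 NK receptors and adaptors 1 was called (2.22%, beside 5.84% of all genes), Lag3, an inhibitory receptor that rose by 2.90 in WT and 1.84 in KO, and the median interaction was 0.35. Of 21 granule genes 1 was called (4.76%), Stx11, needed for granule release, at 0.76 in WT and -0.15 in KO. Gzmb, granzyme B, changed by 4.77 in WT and 5.14 in KO, and Ifng by 5.40 in both, with interaction SEs of 0.18 and 0.63. Of 18 cytokine genes Tgfb1 was called (5.56%), at 80.9, 207 and 148 CPM in WT D2 and 33.7, 59.6 and 48.2 CPM in KO D2. Of 30 NK transcription factors 3 were called (10%), Xbp1, Irf8 and Runx1. Irf8, which NK cells need for expansion against MCMV, rose from 1019 and 934 CPM to 4303, 5630.2 and 5018 CPM in WT. In KO it rose from 969.8, 1124 and 975 CPM to 2631, 3147 and 2967 CPM. The D0 levels overlapped, and KO kept a smaller rise, with an interaction of -0.84 (SE 0.19; edgeR adjusted p = 0.025). With the GC offset Irf8 was not called, at -0.41 (adjusted p = 0.3), and 3 of the 11 fits that left out a library called it. None of these 4 lists had a call with the GC offset.

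Of 34 cytokine receptor and signalling genes 5 were called (14.7%, beside 5.84% of all genes), and none was called with the GC offset or without WT D0 replicate 2. Jak1, the kinase of interferon and cytokine receptors, fell by 1.39 in WT and fell by 2.32 in KO, and the interaction went from -0.92 to -0.27 with the offset (edgeR adjusted p = 0.43). Ifnar2, a chain of the type I interferon receptor, fell by 1.01 in WT and fell by 2.29 in KO, with an interaction of -0.75 with the offset (edgeR adjusted p = 0.091), and Tgfbr2 was also an enhanced fall. Socs1, an inhibitor of cytokine signalling, changed by 1.40 in WT and -1.49 in KO. Its WT days overlapped, at 11.8 and 19.2 CPM at D0 and 14.6, 59.5 and 48.8 CPM at D2. The fifth was Jak3, a lost rise. Of 29 immediate early genes 3 were called (10.3%), at a median of -0.77. Peak GC was over 75% in 21 of the 29, and 702 of all 5411 genes over 75% were called. Junb, an AP-1 factor, fell by 1.33 in WT and fell by 2.95 in KO, Ier2 fell by 1.74 in WT and fell by 3.67 in KO, and Jund changed by 0.26 and -2.34.

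Slc3a2, the heavy chain of amino acid transporters, stood at 267 and 288 CPM in WT D0 and at 335, 458 and 425 CPM in WT D2. Its KO levels were 286, 309 and 348 CPM at D0 and 179, 201 and 194 CPM at D2. WT rose and KO fell, with an interaction of -1.26 (SE 0.20; edgeR adjusted p = 0.0084), and the GC offset left it at -1.25 (adjusted p = 0.029). Its partner Slc7a5, the light chain, rose by 3.63 in WT and 1.88 in KO. These were the 2 calls of 12 uptake genes (16.7%). Of 46 Myc and ribosome biogenesis genes 2 were called (4.35%), Gar1 (1.97 in WT, -0.09 in KO) and Utp18, and Myc changed by 3.35 and 3.10. Of 31 genes of serine, one-carbon and nucleotide synthesis 3 were called (9.68%), Mthfd1l (1.25 and 0.19), Cad (1.67 and 0.75) and Impdh1 (-0.04 and -1.19). Of 20 aminoacyl-tRNA synthetases Vars was called (1.26 and -0.40), and of 37 proteasome genes Psmd3 (1.03 and -0.80) and Psmd8. Insig1, which holds back sterol synthesis, changed by 0.91 in WT and -1.18 in KO. Its WT days overlapped, at 15.4 and 12.3 CPM at D0 and 15, 40.5 and 22.4 CPM at D2.

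Elsewhere single genes were called. Gadd45a was the 1 call of 20 p53 targets (5%), and fell by 1.45 in WT and fell by 2.84 in KO. Of these targets 12 had a positive interaction estimate and 8 a negative one, with a median of 0.18. Among them 9 had an unadjusted p under 0.05, and DESeq2 called 5. Vhl, which marks HIF-1 for degradation, was the 1 call of 21 genes of that pathway, and it fell by 0.67 in WT and fell by 1.84 in KO, and Hif1a changed by 2.80 and 1.34 without being called (SE 0.42; edgeR adjusted p = 0.062). Txnip was the 1 call of 26 quiescence genes. None was called among 14 ATF4, 24 heat shock, 16 BCL2 family and 25 homing genes by edgeR, with 2, 4, 2 and 4 at an unadjusted p under 0.05, and DESeq2 called 0, 1, 0 and 2. Among the homing genes S1pr1, the receptor for exit from lymphoid tissue, changed by -6.41 in WT and -6.22 in KO. The list medians near 0 depend on the scaling, because DESeq2 size factors in edgeR raised the interaction by a median of 0.10. Under that scaling the medians of oxidative phosphorylation (0.07), glycolysis (0.01) and 6 other lists changed sign.

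**Figure D5:**
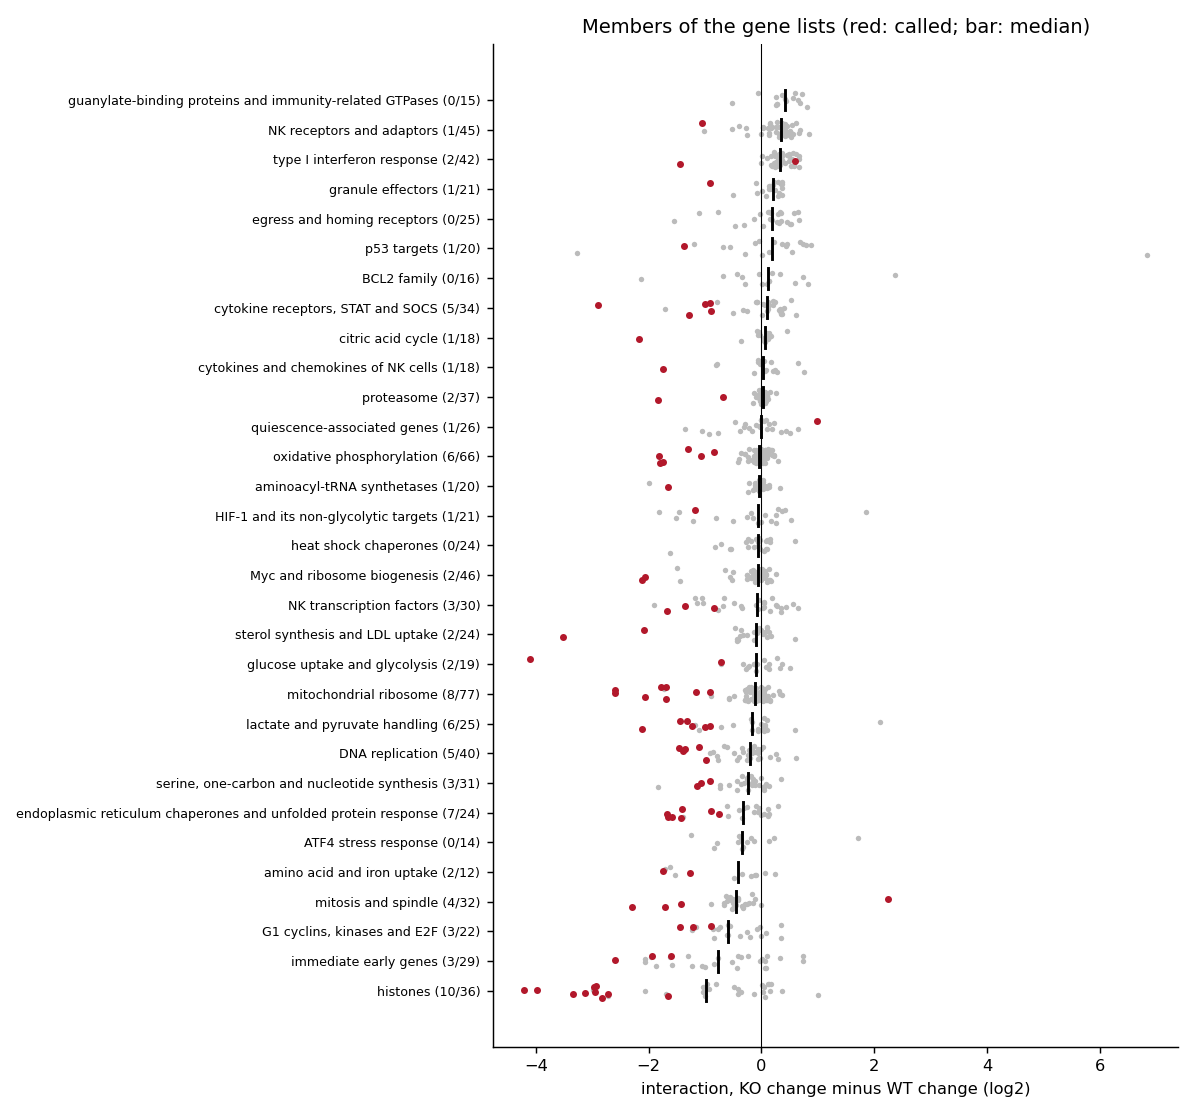
Interaction (horizontal axis, log2) of the tested members of 31 gene lists, ordered by median; each point is a gene, red where called, black bar for the median, and the number called over the number tested after each name. Histones have the lowest median, -0.99, and the guanylate-binding and immunity-related GTPases the highest, 0.42.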

How the data were processed

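RNA of Ly49H+ NK cells was measured in 11 libraries made with the SMART-Seq v4 low-input kit, per the labels' protocols. The authors deposited counts in whole numbers, with Entrez gene IDs. The submitters' processing notes name bcl2fastq 2.20.0.422, Trimmomatic 0.36, Salmon 0.13.1 (also given as 13.1), DESeq2 1.22.2 and mm10 without their roles, so the counts may be rounded estimates. Symbols came from RefSeq (GRCm38.p6) for 24387 of 24421 IDs, and the 34 others held at most 0.0244% of a library.

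Counts were fitted with edgeR 4.0.16 (R 4.3.3; TMM, filterByExpr, robust quasi-likelihood F test, 4 group means, no covariate, 7 residual degrees of freedom). The call threshold was 0.05 for the Benjamini-Hochberg adjusted p over all 13711 genes tested, and SEs were derived from the F statistic. P-values measure the spread between these libraries. Total counts per library, 19452460 to 27992092, set the counting error. Peak GC used 100-base windows of GENCODE M21 transcripts, and taking the highest value over transcripts was chosen after the data were seen.

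Genes were named by a rule: Ldha, up to 6 genes by smallest p per class and direction with a mean of at least 5 CPM, and up to 3 called members per list. Names outside it, such as Slc16a1, Manf, Hspa5, Irf7 and the genes with a peak GC of at most 70%, were chosen after their values were seen. The members, the 31 gene lists and the 8 marker lists were chosen with earlier results of these data known. Alternatives were the DESeq2 1.42.0 Wald test, its size factors (RLE), other filters, a GC offset, a replicate block, a stricter threshold, classes by the ratio of the changes, and leaving out each library. The fit was tested on simulated data.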

Additional observations from a re-analysis of the deposited data

Results flagged for a closer look

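The D0-to-D2 change differed between KO and WT for 801 genes by the test of the difference itself, the interaction term of the edgeR fit at an adjusted p under 0.05. The genes that the naming rule took and the report names are grouped here by how many of the 11 fits that left out a library, and whether the fit with the GC offset, also called them, with the interaction (log2) after each name.

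In all 11 fits and with the GC offset the calls were Ldha (-2.11), Dut (-2.10), Pdia3 (-1.42) and Trip13 (-1.76). In 10 of 11 fits and with the GC offset there were 29 named genes. The negative ones were Sdf2l1 (-1.65), Nek2 (-2.01), Rps2 (-1.39), Cox5a (-1.82), Phb2 (-1.59), Cdkn2aip (-1.72), Tmem9b (-1.50), Spr (-2.20), Dync1li1 (-1.31), Crlf3 (-1.14), Scand1 (-3.50), Slc7a6os (-1.47), Mmd (-1.64), Pfn1 (-1.73), Exosc3 (-1.75), Rtca (-1.45), Dbr1 (-1.58), Tusc3 (-1.73), Lsm4 (-1.43), Dlat (-1.45), Idh2 (-2.17), Mrps35 (-1.70), Slc3a2 (-1.26), Mcm6 (-1.46), Ccna2 (-2.30) and H2ac20 (-2.96). The positive ones were Dglucy (1.61), Naip6 (1.36) and Cd55 (1.66).

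Another 7 genes were called in 10 of 11 fits but not with the GC offset: Ube2s (-1.50), Sf1 (-1.17), Fth1 (-1.21), Tpm1 (-1.50), Pdk3 (-1.32), Rfc5 (-1.10) and Vhl (-1.17). In 4 to 9 fits and with the GC offset there were 10: Mrps15 (-1.78), Sel1l (-0.90), Psmd3 (-1.83), Cdc20 (-1.71), E2f4 (-1.44), Ier2 (-1.94), H2ac4 (-2.93), H2ac24 (-4.21), Psrc1 (2.25) and Cnbd2 (1.49). In 4 to 9 fits but not with the offset there were 7: Ndufab1 (-1.31), Uqcrfs1 (-1.79), Vars (-1.66), Gadd45a (-1.38), Ifnar2 (-1.29), Junb (-1.61) and Txnip (0.99).

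The least stable calls were kept in up to 3 of the 11 fits. With the GC offset these were Clspn (-0.98), Rarg (1.28) and Zfp445 (0.71). Without it there were 28, of which the negative ones were Pgp (-4.11), Pgam1 (-0.71), Gar1 (-2.06), Utp18 (-2.11), Mthfd1l (-1.07), Cad (-0.92), Impdh1 (-1.15), Slc7a5 (-1.74), Insig1 (-2.09), Psmd8 (-0.69), Chaf1a (-1.39), Cdk6 (-0.90), Cdc25a (-1.22), Cmpk2 (-1.45), Stx11 (-0.91), Tgfb1 (-1.74), Lag3 (-1.06), Irf8 (-0.84), Runx1 (-1.35), Xbp1 (-1.68), Socs1 (-2.89), Jak1 (-0.92) and Jund (-2.59). The positive ones were Anxa1 (0.70), Slc26a11 (1.24), Slfn8 (0.60), Serpini1 (1.09) and Cd9 (0.55).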

How the results depend on the processing

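Counts of called genes moved widely between runs. No gene that the naming rule took changed direction under any alternative run, and genes named outside the rule with estimates near 0 are not covered by this. Of the 801 genes, 798 kept the direction of their estimate with the GC offset. With a replicate block within day and that offset, 794 did. The alternative runs reuse libraries of the fit that picked the genes, so kept directions do not show that the directions are stable. Against 801 calls (17 positive, 784 negative; 84 blunted, 124 lost, 144 enhanced, 346 gained, 103 reversed), leaving out 1 library gave 4 to 1436 calls, 0 to 87 positive and 4 to 1404 negative, with 3 to 114 blunted, 1 to 211 lost, 0 to 352 enhanced, 0 to 659 gained and 0 to 213 reversed. With either WT D0 library left out, the remaining one is assumed to vary like the other groups. The GC offset gave 131 calls, 106 negative, with 27 blunted, 30 lost, 15 enhanced, 38 gained and 21 reversed. Genes of at most 70% peak GC alone gave 1 call, 0 positive and 1 negative, which was lost, and 0 in the other classes. RLE scaling gave 495 calls, 475 negative, with 76 enhanced and 194 gained, and 492 of them were among the 801. DESeq2 gave 1161 calls, 92 positive, with 141 blunted, 202 lost and 223 enhanced. A mean of at least 5 CPM gave 221 enhanced, and no filter gave 219 gained and 67 reversed. An adjusted p under 0.01 left 77 calls, 1 positive and 76 negative, with 12 blunted, 16 lost, 12 enhanced, 18 gained and 19 reversed. Classes by the ratio of the KO to the WT change gave 30 lost, 303 enhanced and 383 reversed. The cause of these shifts was not tested.

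Replicate numbers were taken to pair libraries only if every same-numbered pair correlated above 0.1, and 1 of the 5 pairs did not. At D2, the correlation of deviations from the group mean between KO and WT libraries of the same number was 0.494, 0.458 and 0.353. Between KO and WT libraries of different numbers at D2 it ran from -0.45 to 0.0186. At D0, with 2 shared numbers, it was 0.0397 and 0.61. A replicate block within day gave 2616 calls, 619 positive and 1997 negative, and 2491 with the GC offset, 1272 positive and 1219 negative. That block leaves the WT and KO changes without an estimate, so no classes were counted there. A replicate block across days gave 1858 calls, 139 positive and 1719 negative, with 238 blunted, 264 lost, 393 enhanced, 687 gained and 275 reversed.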
